A study of Mus musculus with 84 samples.

Results

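Granulocyte-monocyte progenitors (GMP) and the hematopoietic progenitors labelled HPC were compared within 3 mice labelled MLL-ENL (x2), by RNA sequencing of sorted bone marrow cells. The comparison used 6 of the 84 libraries of the study, the GMP and the HPC library of each of the animals 5293, 5897 and 5900, matched by the identifier in their labels. All 41388 mouse genes of the count table entered, and 14260 passed the filter on low counts and were tested. The mice were 10 weeks old, received no doxycycline according to the labels, and carried an MLL-ENL transgene under tetracycline control. MLL-ENL is a leukemia fusion that joins human KMT2A to human MLLT1. Induction was described as fetal. The genotype field reads MLL-ENL and the title adds (x2), and the sources used here do not explain x2. For comparison served the same GMP and HPC populations of 4 wild-type controls of the same age (4892, 4894, 5898 and 5899), also without doxycycline. The intermediate population pGM, the pre-granulocyte-monocyte progenitors, was measured in the same 7 animals. HPC are called committed progenitors in the labels, the sources used here give no sort gates, and nothing in them states that each identifier is a separate animal. The p-values therefore measure the spread between these samples, which may be technical. The fit took this spread from all 21 libraries, the HPC, pGM and GMP of MLL-ENL (x2) and control animals together.

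In normal bone marrow, multipotent progenitors keep genes of several lineages active at a low level, and these are narrowed down as cells commit. The transcription factors PU.1 (Spi1) and C/EBP alpha (Cebpa) direct entry into the granulocyte-monocyte lineage, Irf8 favours monocytes, and Gfi1 and Cebpe favour granulocytes. GMP are known for making the enzymes of primary (azurophil) granules, which are stored before the secondary and tertiary granules of maturing neutrophils are filled. MLL fusion proteins hold genes such as the Hoxa cluster and Meis1 active, which normally decline along this path.

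A large share of GMP RNA came from 4 enzymes of primary granules that moved together, so their promoters are shown here. Together Mpo, Elane, Prtn3 and Ctsg took 11.2, 10.6 and 9.17% of all counts in GMP of animals 5293, 5897 and 5900, against 0.621, 0.702 and 0.537% in their HPC. Each sequence below holds the 250 bases before the annotated start, 5′ to 3′ on the strand of the gene, from RefSeq on GRCm38.p6. Capitals mark the letters GAGGAA, the core bound by PU.1.
Mpo: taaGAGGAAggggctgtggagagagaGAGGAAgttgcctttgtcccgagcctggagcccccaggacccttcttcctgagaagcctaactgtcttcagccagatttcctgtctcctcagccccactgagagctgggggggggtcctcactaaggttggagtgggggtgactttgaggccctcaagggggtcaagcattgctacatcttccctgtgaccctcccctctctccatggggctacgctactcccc
Elane: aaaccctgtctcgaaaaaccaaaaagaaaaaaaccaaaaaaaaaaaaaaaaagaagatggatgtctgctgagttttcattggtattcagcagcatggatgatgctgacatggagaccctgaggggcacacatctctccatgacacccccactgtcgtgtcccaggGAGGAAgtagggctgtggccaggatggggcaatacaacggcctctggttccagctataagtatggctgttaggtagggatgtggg
Prtn3: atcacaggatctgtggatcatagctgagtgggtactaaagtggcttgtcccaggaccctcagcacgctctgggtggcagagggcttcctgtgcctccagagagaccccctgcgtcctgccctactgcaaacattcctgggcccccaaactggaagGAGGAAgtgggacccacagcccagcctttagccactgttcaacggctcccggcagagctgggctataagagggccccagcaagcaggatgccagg
Ctsg: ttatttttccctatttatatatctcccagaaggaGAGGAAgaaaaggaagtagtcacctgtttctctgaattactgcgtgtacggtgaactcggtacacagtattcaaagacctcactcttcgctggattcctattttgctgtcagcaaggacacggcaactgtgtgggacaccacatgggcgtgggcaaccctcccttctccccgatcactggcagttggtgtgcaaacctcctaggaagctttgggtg
The positions are chr11:87793534-87793783 on the plus strand for Mpo, chr10:79886062-79886311 on the plus strand for Elane, chr10:79879417-79879666 on the plus strand for Prtn3 and chr14:56102575-56102824 on the minus strand for Ctsg. Both strands were searched for GAGGAA and for TTNNGNAA, a C/EBP pattern. GAGGAA occurred on the strand of the gene in all 4, at 247 and 224 bases before the start in Mpo, 85 in Elane, 95 in Prtn3 and 216 in Ctsg. TTNNGNAA was not found in these 4 windows. Of 27025 mouse promoters of this length, 23.1% held GAGGAA, 36.9% held TTNNGNAA and 8.86% held both. These are matches of letters, and binding was not measured.

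The libraries held 15120310 to 19508193 mouse counts in GMP and 14676180 to 18764523 in HPC. The 10 most abundant genes took 15.4, 14.58 and 13.32% of counts in GMP, against 6.48, 6.88 and 6.31% in HPC (animals 5293, 5897, 5900). Transgene counts were present in each MLL-ENL (x2) library, with at least 74 counts against at most 5 in a control library. Transgene levels, given as CPM of mouse counts without further scaling, were 4.45, 4.82 and 11.38 CPM in GMP and 7.78, 10.63 and 14.34 CPM in HPC. The GMP mean was 6.88 ± 3.9 CPM and the HPC mean 10.92 ± 3.29 CPM (SD, n = 3 each), lower in GMP in 3 of 3 animals by an average of 0.71 on the log2 scale (2-sided exact sign-flip permutation p = 0.25, the smallest possible with 3 pairs). The mouse genes Kmt2a (log2 fold change -0.27 ± 0.19, adjusted p = 0.24) and Mllt1 (0.35 ± 0.27, 0.3) did not pass the test, although Kmt2a was called lower with library totals alone (-0.58, 0.035) and Mllt1 higher without animal 5293 (0.62, 0.04).

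Marker genes were checked against the labels. GMP held Mpo, Elane and Prtn3 at the levels given below, and Alb and the B cell gene Ms4a1 were near or at 0 in both populations. HPC, although labelled committed, held the stem cell genes Hlf (386 to 472 CPM), Procr (46.1 to 55 CPM) and Mecom (101 to 130 CPM). Levels throughout are CPM, gene counts relative to the library total, scaled by the trimmed mean of M values (TMM), and changes are log2 fold changes of GMP over HPC with their SE from edgeR. The adjusted p is the Benjamini-Hochberg value over all genes tested, and a gene is called when it is below 0.05. Genes with near-identical or overlapping copies (Hbb-bt and Hbb-bs, Hba-a1 and Hba-a2, the Gimap, Ctla2, H2, Mrgpra and immunoglobulin genes) are uncertain, because the sources used here do not say how shared reads and strand were treated. In bulk RNA of sorted cells, fewer cells of a type and less RNA per cell cannot be told apart.

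The step was broad. Of the 14260 genes, 7153 (50.2%) were called, 3489 higher (24.5%) and 3664 lower (25.7%) in GMP. By at least 2-fold, 1477 rose (10.4%) and 2463 fell (17.3%), and these shares are the measure for every list below. The 3 GMP libraries lay wholly above the 3 HPC libraries in 22.3% of genes and wholly below in 23.4%. The median log2 change of all genes was 0.02 with TMM scaling, and was lower by 0.307 when library totals alone were used. Calls were then 2040 higher and 5237 lower, so that 28% of calls were higher in place of 48.8%. Small rises of a gene group therefore depend on the scaling, and the larger shifts of list counts are marked as such. A fit of the 6 compared libraries alone, with TMM scaling, called 2358 genes higher and 2886 lower in GMP.

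Among the 12 genes that rose most, Mgam, maltase-glucoamylase, stood at 24.1, 24.9 and 41.7 CPM in GMP against 0.509, 0 and 0.162 CPM in HPC (6.94 ± 0.60, adjusted p = 2.9e-08). Fcnb, the lectin ficolin B, stood at 124, 186 and 177 CPM against 1.53, 1.13 and 2.75 CPM (6.63 ± 0.85, 4.2e-06). Igsf6, an immunoglobulin superfamily receptor, stood at 1015, 907 and 658 CPM against 21.5, 11.5 and 9.87 CPM (5.95 ± 0.40, 1.2e-09). In these 3 genes each GMP library was far above each HPC library. The other 9 were the inflammasome protein pyrin (Mefv, 6.49 ± 0.58), the basophil protease Prss34 (6.30 ± 0.54), prominin (Prom1, 6.16 ± 0.56), the acyltransferase Mogat2 (5.99 ± 0.63), the granulocytic factor Cebpe (5.94 ± 0.54), the receptor Trem3 (5.94 ± 0.42), Adgre1, which encodes the macrophage antigen F4/80 (5.87 ± 0.48), complement C3 (5.87 ± 0.61) and the receptor Mrgpra2b (5.77 ± 0.45).

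Among the 12 genes that fell most, Mn1, a transcriptional cofactor of immature myeloid cells, stood at 1.13, 1.07 and 1.10 CPM in GMP against 513, 837 and 581 CPM in HPC (-9.23 ± 0.34, adjusted p = 1e-12). Dntt, the terminal transferase of lymphoid progenitors, stood at 2.48, 3.49 and 2.50 CPM against 1273, 1689 and 1467 CPM (-9.03 ± 0.29, 1.6e-13). Wfdc18, a secreted protein with a whey acidic protein domain, stood at 0.213, 0.118 and 0.221 CPM against 73.3, 132 and 179 CPM (-9.41 ± 0.30, 1.3e-13). All 3 were close to absent from each GMP library. The receptor Il9r had 0 counts in GMP and 1395 in HPC over the 3 libraries, at least 375-fold lower by a floor of 3 counts over the group. Counts of 2 or 3 in GMP gave HPC over GMP ratios of 460 for the membrane protein Emp1 (95% counting interval 157 to 2.23e+03), 399 for the GTPase Gimap8 (136 to 1.94e+03) and 829 for the light chain constant region Iglc2 (229 to 6.85e+03). Iglc2 rested on the HPC library of 5897, at 132 CPM against 0.787 and 2.21 CPM in the other HPC libraries. Of the rest, the germ line helicase Ddx4 (-9.33 ± 0.35), the lymphocyte GTPase Gimap7 (-9.25 ± 0.38), the transporter Slc16a11 (-9.22 ± 0.34), chromogranin (Chga, -9.12 ± 0.45) and syndecan (Sdc4, -8.64 ± 0.39) fell by similar amounts.

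**Figure D1:**
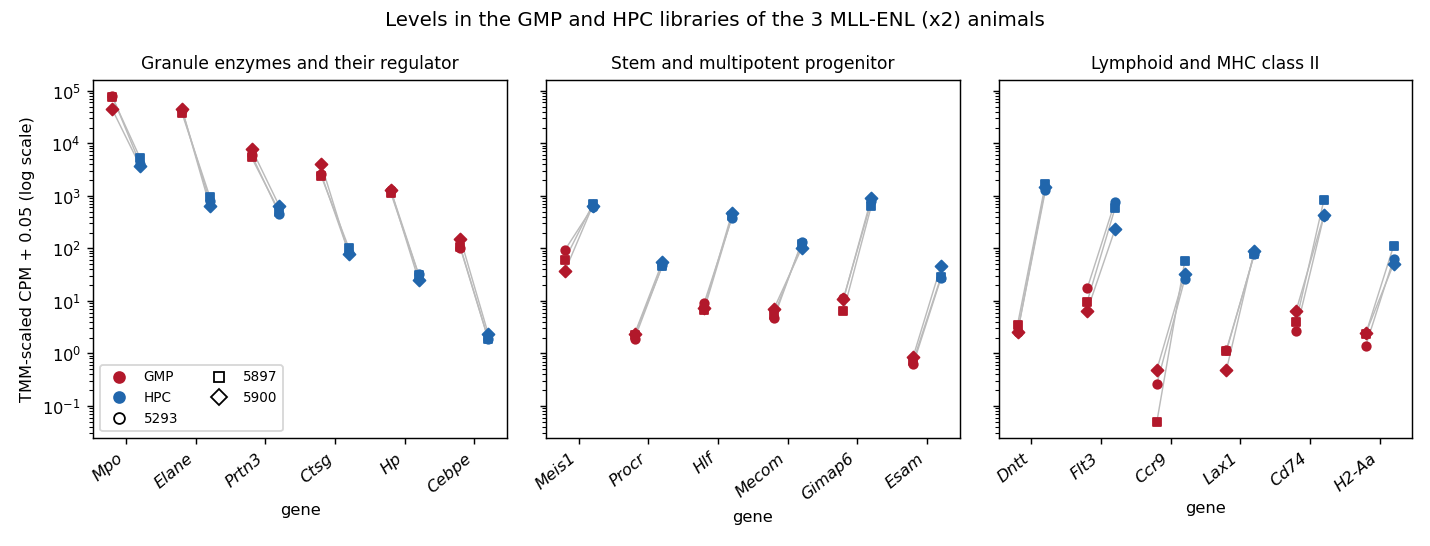
TMM-scaled CPM (log axis, 0.05 added) of 18 genes in the GMP (red) and HPC (blue) libraries of the MLL-ENL (x2) animals, with a line joining the libraries of an animal and a symbol for each animal. Granule genes and Cebpe are higher in every GMP library, and stem, lymphoid and MHC class II genes are higher in every HPC library.

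Primary granule genes rose together. Of the 12 tested, 10 rose, 9 of them by at least 2-fold, and 0 fell, with a median change of 3.07 against 0.02 over all genes. With library totals alone 2 members were called lower, and 1 was called lower without animal 5293 or without the low-count filter. Elane, neutrophil elastase, stood at 43852, 38040 and 45611 CPM in GMP against 796, 970 and 646 CPM in HPC (5.69 ± 0.39, adjusted p = 1.3e-09). Mpo, the myeloperoxidase that makes hypochlorous acid, stood at 79554, 76071 and 44333 CPM against 4062, 5241 and 3723 CPM (3.92 ± 0.19, 1.5e-11). Each lowest GMP library was far above the highest HPC library, and GMP of 5900 had the lowest Mpo. Proteinase 3 (Prtn3) stood at 6058, 5402 and 7896 CPM in GMP against 454, 499 and 635 CPM in HPC (3.6 ± 0.15, 4.8e-12). Cathepsin G (Ctsg) stood at 2595, 2388 and 4058 CPM against 80.0, 99.8 and 77.6 CPM (5.07 ± 0.23, 1.2e-11). These genes are the same as those whose promoters are printed above. Ms4a3, a membrane protein typical of GMP, rose by 5.50 ± 0.39, the protease inhibitor Cst7 by 3.73 ± 0.17 and the serine protease Prss57 by 2.54 ± 0.17. Smaller rises were those of the granule proteoglycan serglycin (Srgn, 1.41 ± 0.14), the elastase inhibitor Serpinb1a (1.07 ± 0.12) and lysozyme (Lyz2, 0.97 ± 0.16). Ctsc, the protease that activates the granule serine proteases (-0.18 ± 0.17, adjusted p = 0.39), did not pass, but was called lower with library totals alone. All 12 genes together took 12, 11.3 and 10.4% of counts in GMP against 0.906, 1 and 0.883% in HPC.

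Genes of secondary and tertiary granules rose as well, while markers of mature neutrophils differed from one another. Of 18 tested, 12 rose, all by at least 2-fold, 0 fell and 6 were not called (median 3.54). Haptoglobin (Hp) stood at 1267, 1132 and 1271 CPM in GMP against 31.9, 31.2 and 24.6 CPM in HPC (5.37 ± 0.53, adjusted p = 1.6e-07). The calgranulin S100a8 stood at 372, 324 and 797 CPM against 10.4, 10.3 and 27.6 CPM (5.03 ± 0.76, 2.4e-05), and the peptidoglycan receptor Pglyrp1 at 492, 465 and 1006 CPM against 97.2, 115 and 153 CPM (2.35 ± 0.21, 5.1e-08). GMP of 5900 was the highest GMP library in both. The chitinase-like Chil3 varied between animals, at 1211, 71.8 and 41.0 CPM in GMP and 17.0, 0.993 and 4.37 CPM in HPC, and the lowest GMP value was still above the highest HPC value. Lactoferrin (Ltf), which fills secondary granules, stood at 1.63, 5.86 and 3.53 CPM against 4.86, 5.82 and 5.50 CPM (-0.57 ± 0.64, 0.49), with overlapping libraries. The neutrophil antigen Ly6g stayed at or below 0.142 CPM in each of the 6 libraries, and Ngp was at 22.3 to 62.3 CPM in GMP and 8.05 to 26.3 CPM in HPC (1.33 ± 0.62, 0.085). The other markers of mature neutrophils, Camp and Mmp8, were higher in each GMP library than in each HPC library. Camp was at 29.3 to 75.1 CPM in GMP against 1.85 to 6.96 CPM in HPC, and Mmp8 at 2.84 to 5.03 CPM against 0 to 0.596 CPM.

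Of the myeloid transcription factors, 11 of the 19 tested, of 20 listed, rose and 4 fell (9 and 4 by at least 2-fold, median 0.68). With library totals alone 8 rose and 5 fell. Cebpe, which drives secondary granule genes, stood at 100, 104 and 153 CPM in GMP against 1.80, 1.79 and 2.27 CPM in HPC (5.94 ± 0.54, adjusted p = 5.8e-08). Cebpa stood at 33.7, 32.5 and 120 CPM against 7.96, 10.1 and 10.3 CPM (2.48 ± 0.33, 5.5e-06), and Gfi1 at 25.2, 28.9 and 104 CPM against 6.62, 6.75 and 12.0 CPM (2.44 ± 0.26, 4.6e-07). In all 3 genes GMP of 5900 was the highest library and GMP and HPC did not overlap. Irf8, the factor of monocyte and dendritic fate, stood at 262, 303 and 154 CPM against 52.3, 56.0 and 30.3 CPM (2.37 ± 0.25, 3.8e-07), lowest in 5900 in both populations. Spi1, which encodes PU.1, stood at 32.1, 25.9 and 38.0 CPM against 22.2, 15.3 and 22.4 CPM (0.68 ± 0.15, 0.0012), a rise that was not called with library totals alone (0.37, adjusted p = 0.064). Cebpd (4.16 ± 0.54), the inhibitor of DNA binding Id1 (3.35 ± 0.36), Cebpb (1.47 ± 0.39) and Zeb2 (1.27 ± 0.14) rose, while Cebpb was not called without animal 5900 (1.11, adjusted p = 0.073). The immediate early factor Egr1 stood at 0.426, 0.237 and 0.515 CPM in GMP against 6.52, 11.9 and 11.4 CPM in HPC (-4.65 ± 0.47, 2.4e-07), and the retinoic acid receptor Rara (-2.55 ± 0.44) and Irf5 (-1.37 ± 0.20) fell too. Jun fell by 1.28 on the log2 scale, and its call was lost without animal 5897 (-1.01, adjusted p = 0.08). Klf4 (2.14 ± 0.77) and the clock gene Per3 (0.54 ± 0.18) were called, but Klf4 not without 5897 (2.21, adjusted p = 0.1) or 5900 (1.48, 0.14), and Per3 not without 5293 (0.49, 0.064) or 5897 (0.60, 0.054). With library totals alone neither Klf4 (1.83, 0.065) nor Per3 (0.24, 0.32) was called. Runx1 (0.16 ± 0.16, 0.42), Bach1 (0.36 ± 0.20, 0.14), Nfil3 (-0.17 ± 0.30, 0.66) and Id2 (-0.54 ± 0.24, 0.068) did not pass. However, Id2 was called lower without 5293 (-0.77, adjusted p = 0.039), with library totals alone (-0.85, 0.0051) and with RLE scaling (-0.58, 0.047). It was also called lower with DESeq2 (-0.58, 0.032) and without the low-count filter (-0.59, 0.014).

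**Figure D2:**
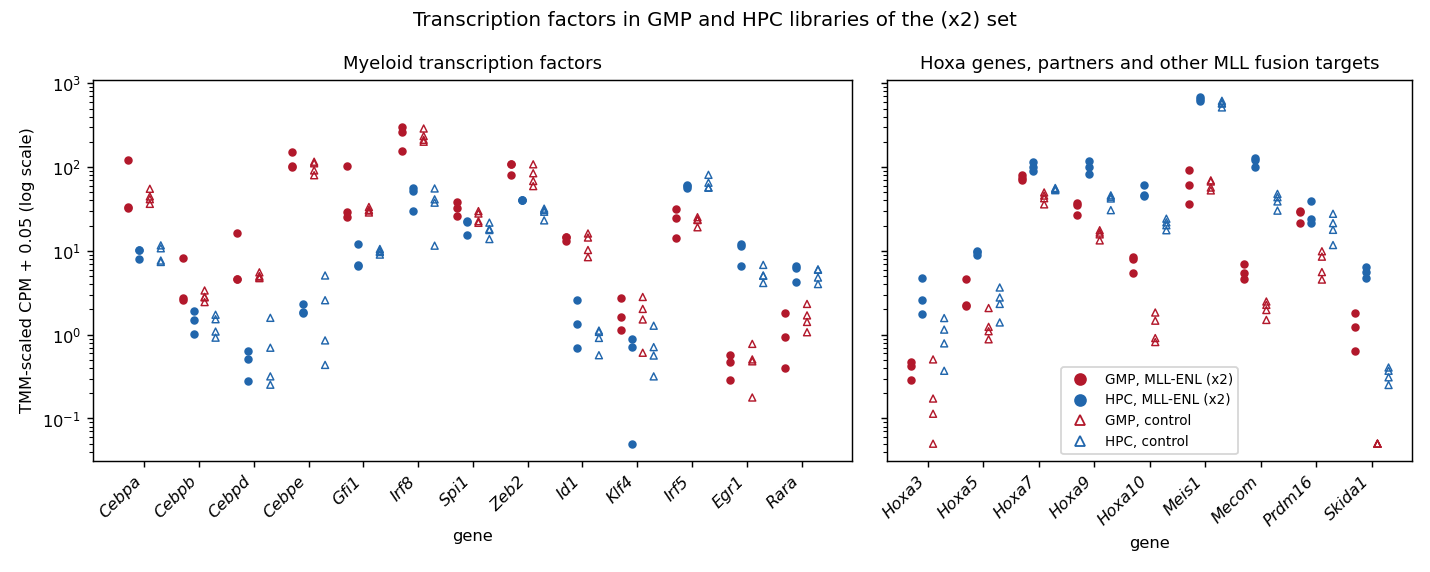
TMM-scaled CPM (log axis, 0.05 added) of myeloid transcription factors (left) and of Hoxa genes, partners and other MLL fusion targets (right), with GMP in red left of HPC in blue, MLL-ENL (x2) libraries as filled circles and controls as open triangles. Cebpa, Cebpe, Gfi1 and Irf8 are higher in each MLL-ENL (x2) GMP library than in each HPC library, Hoxa9, Hoxa10 and Meis1 are lower, and Prdm16 overlaps.

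Receptors of myeloid cytokines changed member by member. Of 16 tested, 9 rose and 2 fell (8 and 2 by at least 2-fold, median 0.96), and 8 rose and 4 fell with library totals alone. The macrophage colony stimulating factor receptor Csf1r stood at 206, 199 and 84.8 CPM in GMP against 19.5, 16.7 and 8.79 CPM in HPC (3.42 ± 0.16, adjusted p = 1.2e-11). The chemokine receptor Ccr2, which brings monocytes out of the marrow, stood at 77.2, 109 and 63.1 CPM against 4.21, 4.43 and 2.70 CPM (4.43 ± 0.30, 1e-09). Both were lowest in 5900 in both populations, and GMP and HPC did not overlap. The interferon gamma receptor Ifngr1 (1.67 ± 0.13), the shared subunit Csf2rb (1.64 ± 0.14) and the GM-CSF receptor chain Csf2ra (1.57 ± 0.25) rose as well. The granulocyte colony stimulating factor receptor Csf3r stood at 217, 185 and 90.2 CPM against 151, 127 and 132 CPM (0.18 ± 0.18, 0.41), with overlapping libraries. The interleukin-1 receptor Il1r1 stood at 3.90, 2.25 and 3.09 CPM in GMP against 39.3, 27.9 and 34.5 CPM in HPC (-3.48 ± 0.19, 7.5e-11), and Il17ra fell by 1.51 on the log2 scale.

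Monocyte and macrophage genes rose in 14 of 20 cases and fell in 4 (12 and 4 by at least 2-fold, median 2.08). With library totals alone 12 rose and 4 fell. F13a1, a coagulation factor subunit of monocytes, stood at 1184, 1532 and 386 CPM in GMP against 35.5, 37.3 and 14.7 CPM in HPC (5.07 ± 0.32, adjusted p = 5.5e-10). Ly6c2, the antigen of inflammatory monocytes, stood at 2087, 2059 and 2748 CPM against 46.7, 78.1 and 37.7 CPM (5.38 ± 0.43, 1.1e-08). GMP exceeded HPC in each animal, and 5900 had the lowest F13a1 in both populations. Ms4a6c (2.92 ± 0.17), Ly86 (3.89 ± 0.26) and the endotoxin receptor Cd14 (4.99 ± 0.35) rose too. The lysosomal genes Ctss (-1.56 ± 0.16) and Psap (-1.15 ± 0.18), the calcium-binding S100a4 (-3.78 ± 0.51) and the Fc receptor Fcgr1 (-2 ± 0.67) fell. The integrin Itgam stood at 75, 46.1 and 31.3 CPM in GMP against 59.9, 38.0 and 39.4 CPM in HPC (0.09 ± 0.16, adjusted p = 0.67).

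Genes of the phagocyte oxidase and of killing rose in 9 of 12 cases, 7 by at least 2-fold, and fell in 0 (median 1.11). Cybb, the catalytic subunit of the oxidase, stood at 83.7, 103 and 77.9 CPM in GMP against 4.44, 8.14 and 5.18 CPM in HPC (3.92 ± 0.50, adjusted p = 3.9e-06). Its partners Cyba (1.07 ± 0.14), Ncf1 (0.90 ± 0.14) and Ncf4 (1.20 ± 0.13) rose by less. The proton channel Hvcn1, which balances the charge moved by the oxidase, stood at 168, 142 and 129 CPM against 9.58, 13 and 10.6 CPM (3.72 ± 0.24, 5.2e-10). The small GTPase Rac2 was at 2613, 2317 and 2451 CPM against 1913, 2380 and 2750 CPM (0.09 ± 0.13, 0.58). The formyl peptide receptors Fpr1 and Fpr2, which appear on mature phagocytes, had 0 counts in all 6 libraries.

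Genes of mast cells, basophils and eosinophils also rose. Of 16 tested, of 18 listed, 11 rose, all by at least 2-fold, and 0 fell (median 3.64). The histidine decarboxylase Hdc, which makes histamine, stood at 539, 573 and 298 CPM in GMP against 13.2, 15.2 and 8.15 CPM in HPC (5.26 ± 0.23, adjusted p = 5.2e-12). The mast cell carboxypeptidase Cpa3 stood at 292, 200 and 192 CPM against 11.9, 11.6 and 9.98 CPM (4.33 ± 0.22, 2.8e-11), and the basophil protease Mcpt8 at 171, 145 and 160 CPM against 14.8, 19.1 and 11.2 CPM (3.42 ± 0.17, 2.8e-11). The eosinophil granule protein Prg2 rose by 4.32 ± 0.68. The summed level of the list was 907 to 1304 CPM in MLL-ENL (x2) GMP, against 45.4 to 63.8 CPM in HPC. The mast cell and basophil marker Ms4a2 was at 13.2 to 20.7 CPM in GMP against 0.054 to 1.65 CPM in HPC. By contrast, Tpsab1 was at 0 in all 6 libraries, and Fcer1a, the IgE receptor chain, at 0.735 to 1.12 CPM in GMP. The part of such cells in the GMP values was not tested.

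Genes of stem and multipotent progenitors fell nearly throughout. Of 32 tested, 30 fell, 27 of them by at least 2-fold, and 0 rose, with a median change of -3.92. Hlf, a transcription factor of stem cells, stood at 9.08, 6.75 and 7.35 CPM in GMP against 386, 406 and 472 CPM in HPC (-5.78 ± 0.21, adjusted p = 8.6e-13). Gimap6 stood at 11.1, 6.33 and 10.7 CPM against 788, 641 and 907 CPM (-6.39 ± 0.19, 1.2e-13). The GMP libraries were tightly grouped and far below HPC in these genes. The endothelial adhesion molecule Esam, also found on stem cells, stood at 0.567, 0.651 and 0.809 CPM in GMP against 27.1, 28.7 and 46.6 CPM in HPC (-5.62 ± 0.25, 7.2e-12), and Mycn fell by 6.61 on the log2 scale. The protein C receptor Procr fell by 4.55 and the niche factor Angpt1 by 3.01. Factors that progenitors share with later lineages fell less, with Lmo2 at -0.97 ± 0.19, Gata2 at -0.95 ± 0.24, Tal1 at -1.12 ± 0.22 and Erg at -1.13 ± 0.20. Prdm16 stood at 29.1, 30.2 and 21.5 CPM in GMP against 24.2, 21.6 and 39.0 CPM in HPC (-0.05 ± 0.24, 0.87), with overlapping libraries, and Slamf1 stayed below 1 CPM in all 6.

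Members of the Hoxa cluster fell unequally. Of 11 listed, 7 passed the filter, 5 fell, 4 of them by at least 2-fold, and 0 rose (median -1.57). Hoxa9, which sustains progenitor self-renewal, stood at 37.2, 26.8 and 35.6 CPM in GMP against 82.0, 117 and 100 CPM in HPC (-1.57 ± 0.20, adjusted p = 3.8e-06). Hoxa10 stood at 8.51, 5.39 and 7.94 CPM against 44.9, 61.1 and 46.8 CPM (-2.79 ± 0.23, 1.2e-08). Hoxa7 stood at 74.1, 69.7 and 80.8 CPM against 90.1, 99.2 and 115 CPM (-0.43 ± 0.12, 0.005). In each of the 3 genes the libraries did not overlap, and Hoxa7 lay closest. Hoxa5 (-1.73 ± 0.33) and Hoxa3 (-3.04 ± 0.69) fell as well and stayed below 10 CPM in all 6 libraries, and Hoxa2 and Hoxa4 did not pass. Hoxa6 was too low to test, and Hoxa11 and Hoxa13 had 0 counts. Of the Hoxb cluster, Hoxb5 had 1 count in GMP and 142 in HPC (HPC over GMP 115, 95% counting interval 20.2 to 4.56e+03), and Hoxb4 did not pass (0.48 ± 0.45, 0.39).

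Across the 23 tested of 24 MLL fusion targets, 14 fell and 4 rose (11 and 3 by at least 2-fold, median -0.97). With library totals alone 17 fell and 3 rose. Meis1, the DNA-binding partner of Hoxa9, stood at 92.8, 61.1 and 36.7 CPM in GMP against 613, 686 and 650 CPM in HPC (-3.44 ± 0.22, adjusted p = 5.4e-10). Mecom stood at 4.61, 5.33 and 6.98 CPM against 130, 122 and 101 CPM (-4.38 ± 0.24, 8.2e-11), and the receptor kinase Flt3 at 17.2, 9.65 and 6.47 CPM against 777, 585 and 232 CPM (-5.53 ± 0.25, 7.2e-12). Each was lower in every GMP library. The kinase Cdk6 stood at 2025, 1771 and 1195 CPM in GMP against 812, 715 and 631 CPM in HPC (1.18 ± 0.12, 2.2e-07), and Myb at 360, 321 and 548 CPM against 173, 166 and 204 CPM (1.16 ± 0.14, 3e-06). The methyltransferase gene Dot1l (0.61 ± 0.16) and Zeb2 (1.27 ± 0.14) were the other members that rose. Skida1 stood at 1.77, 0.592 and 1.18 CPM against 4.67, 5.63 and 6.37 CPM (-2.24 ± 0.48, 0.0011). Myc stood at 721, 828 and 473 CPM against 502, 829 and 723 CPM (-0.04 ± 0.16, 0.84), without separation.

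Most lymphoid priming genes fell, and their summed level was 1004 to 1256 CPM in GMP against 4430 to 5092 CPM in HPC. Of 24 tested lymphoid priming genes, of 25 listed, 21 fell, all by at least 2-fold, and 0 rose (median -3.42). The homing receptor Ccr9 stood at 0.213, 0 and 0.441 CPM in GMP against 25.9, 56.4 and 32.0 CPM in HPC (-7.51 ± 0.48, adjusted p = 6e-10), and the adaptor Lax1 at 1.13, 1.07 and 0.441 CPM against 76.6, 79.6 and 90.5 CPM (-6.57 ± 0.28, 5.2e-12). The interleukin-7 receptor gene Il7r had 2 counts in GMP and 432 in HPC (HPC over GMP 174, 95% counting interval 48 to 1.44e+03). Bcl11a (-2.45 ± 0.16), Ikzf1 (-1.05 ± 0.13) and Satb1 (-1.69 ± 0.18), factors of lymphoid development, fell but remained above 20 CPM in GMP. Of the B cell list, 5 of 6 tested fell, and their HPC levels differed between animals. The kappa constant region Igkc stood at 0.567, 20.5 and 1.25 CPM in GMP against 104, 2775 and 754 CPM in HPC, and Cd79a at 0.142, 0.533 and 0.368 CPM against 3.10, 35.7 and 12.2 CPM, highest in 5897 in both populations. The part of B lineage cells in the HPC values was not tested. In the T and NK list, 7 of 10 tested fell and 1 rose (median -4.76, or -3.39 with genes at 0 set at their bound). The member that rose, Nkg7, stood at 2433, 2304 and 3846 CPM in GMP against 451, 570 and 467 CPM in HPC (2.48 ± 0.18, 3.9e-09), and with it the summed level of the list was 2309 to 3853 CPM in GMP against 697 to 891 CPM in HPC, while the T cell receptor gene Trac had 0 counts in GMP and 74 in HPC (at least 19.9-fold lower).

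Antigen presentation genes fell with them. In the MHC class II and dendritic list, 11 of 14 tested fell, 10 by at least 2-fold, and 1 rose (median -2.69, or -2.49 with genes at 0 set at their bound). The invariant chain Cd74 stood at 2.62, 3.97 and 6.47 CPM in GMP against 420, 850 and 431 CPM in HPC (-7.06 ± 0.40, adjusted p = 1.1e-10). H2-Aa stood at 1.35, 2.31 and 2.35 CPM against 63.4, 112 and 50.8 CPM (-5.26 ± 0.38, 3.2e-09). Their transactivator Ciita had 0 counts in GMP and stood at 5.14, 6.35 and 0.809 CPM in HPC. The peptide-loading gene H2-DMa fell by less (-0.93 ± 0.12), H2-DMb1 did not pass (0.25 ± 0.11, 0.068), and the protease inhibitor Cst3 rose (0.87 ± 0.14).

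Erythroid and megakaryocyte genes were mixed. Of 18 erythroid genes 8 fell and 2 rose (median -2.79, or -2.10 with genes at 0 set at their bound). Without animal 5900 the number that fell was 5. The carbonic anhydrase Car2 stood at 42.2, 31.9 and 43.2 CPM in GMP against 2421, 2275 and 3452 CPM in HPC (-6.10 ± 0.23, adjusted p = 1.2e-12). Gata1, the factor of the erythroid lineage, stood at 12.1, 7.52 and 4.78 CPM against 0.879, 1.13 and 2.05 CPM (2.55 ± 0.40, 3.8e-05), and the transferrin receptor Tfrc rose by 3.02 ± 0.17. The erythroid factor Klf1 (-0.39 ± 0.70, 0.67) did not pass and was below 2 CPM in all 6 libraries. Of 13 megakaryocyte genes tested, of 15 listed, 10 fell and 2 rose (median -2.40), and with library totals alone 10 fell and 0 rose. The thrombin receptor F2r (-4.64 ± 0.45), P-selectin (Selp, -2.36 ± 0.18) and platelet factor 4 (Pf4, -4.58 ± 0.40) fell. The integrin Itga2b (0.79 ± 0.23) and Cd9 (0.60 ± 0.14) rose with TMM scaling.

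Interferon response genes were higher in HPC. Of 20 tested, 18 fell in GMP, 15 by at least 2-fold, and 0 rose (median -2.94). Oasl2 stood at 14, 13 and 10.8 CPM in GMP against 161, 186 and 227 CPM in HPC (-3.93 ± 0.18, adjusted p = 1.3e-11), and the interferon regulatory factor Irf7 at 11.9, 5.09 and 5.22 CPM against 112, 104 and 116 CPM (-3.96 ± 0.24, 3.3e-10). Rtp4 (-5.10 ± 0.28), Ifi44 (-8.06 ± 0.43) and the RNA sensor Ddx58 (-3.06 ± 0.19) fell likewise. Stat2 fell by 0.41, and Bst2 did not pass (0.07 ± 0.12, 0.64). The receptor Ifngr1, which binds the other interferon class, moved the opposite way, as given above.

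Genes of protein folding and secretion in the endoplasmic reticulum rose in 18 of 20 cases, 15 by at least 2-fold, and fell in 0 (median 1.5). Calreticulin (Calr) stood at 3074, 3719 and 2987 CPM in GMP against 712, 959 and 849 CPM in HPC (1.96 ± 0.12, adjusted p = 2.3e-10), and the chaperone Hsp90b1 at 1127, 1304 and 1115 CPM against 323, 322 and 360 CPM (1.82 ± 0.12, 7.8e-10). GMP and HPC were separated in both. The disulfide isomerase Pdia3 stood at 2312, 2326 and 518 CPM against 715, 783 and 125 CPM (1.77 ± 0.26, 2.2e-05), with both libraries of 5900 below those of the other animals and a rise in each animal. The stress factor Ddit3 (0.11 ± 0.21, 0.68) and the co-chaperone Dnajb9 (0.04 ± 0.18, 0.85) did not pass. With library totals alone 16 rose and 0 fell.

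Proliferation and biosynthesis genes moved by less than 2-fold for the most part. DNA replication genes rose in 11 of 22 cases and fell in 0 (median 0.38), but 5 rose and 3 fell with library totals alone, and 7 rose without the replicate block. Mitosis genes rose in 6 of 20 and fell in 1 (median 0.28), or 4 and 2 with library totals alone. Ribosome biogenesis genes rose in 11 of 20 and fell in 0 (median 0.41), or 6 and 1 with library totals alone. Oxidative phosphorylation genes rose in 13 of 22 and fell in 0 (median 0.65), or 12 and 1 with library totals alone. The thymidine kinase Tk1 stood at 199, 232 and 218 CPM in GMP against 105, 118 and 128 CPM in HPC (0.89 ± 0.11, adjusted p = 2.9e-06), and Mki67 at 141, 130 and 139 CPM against 102, 40.2 and 48.5 CPM (1.22 ± 0.24, 0.00032). Both were higher in each GMP library than in each HPC library. Top2a, the topoisomerase of dividing cells, stood at 625, 720 and 463 CPM against 726, 533 and 516 CPM (0.01 ± 0.13, 0.97), with overlap. Among 14 regulators of G1, 4 rose and 4 fell (median -0.02). The inhibitor Cdkn1c stood at 0.567, 0 and 0.221 CPM in GMP against 3.89, 8.94 and 8.74 CPM in HPC (-4.67 ± 0.85, 0.00018), Ccnd1 fell by 2.31, Cdkn1b by 0.88 and Ccnd2 by 0.94, while Ccne1 rose by 1.09 and Rb1 by 0.95 on the log2 scale. Cdkn1a rose by 0.92 ± 0.20, or by 0.59 without animal 5900.

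**Figure D3:**
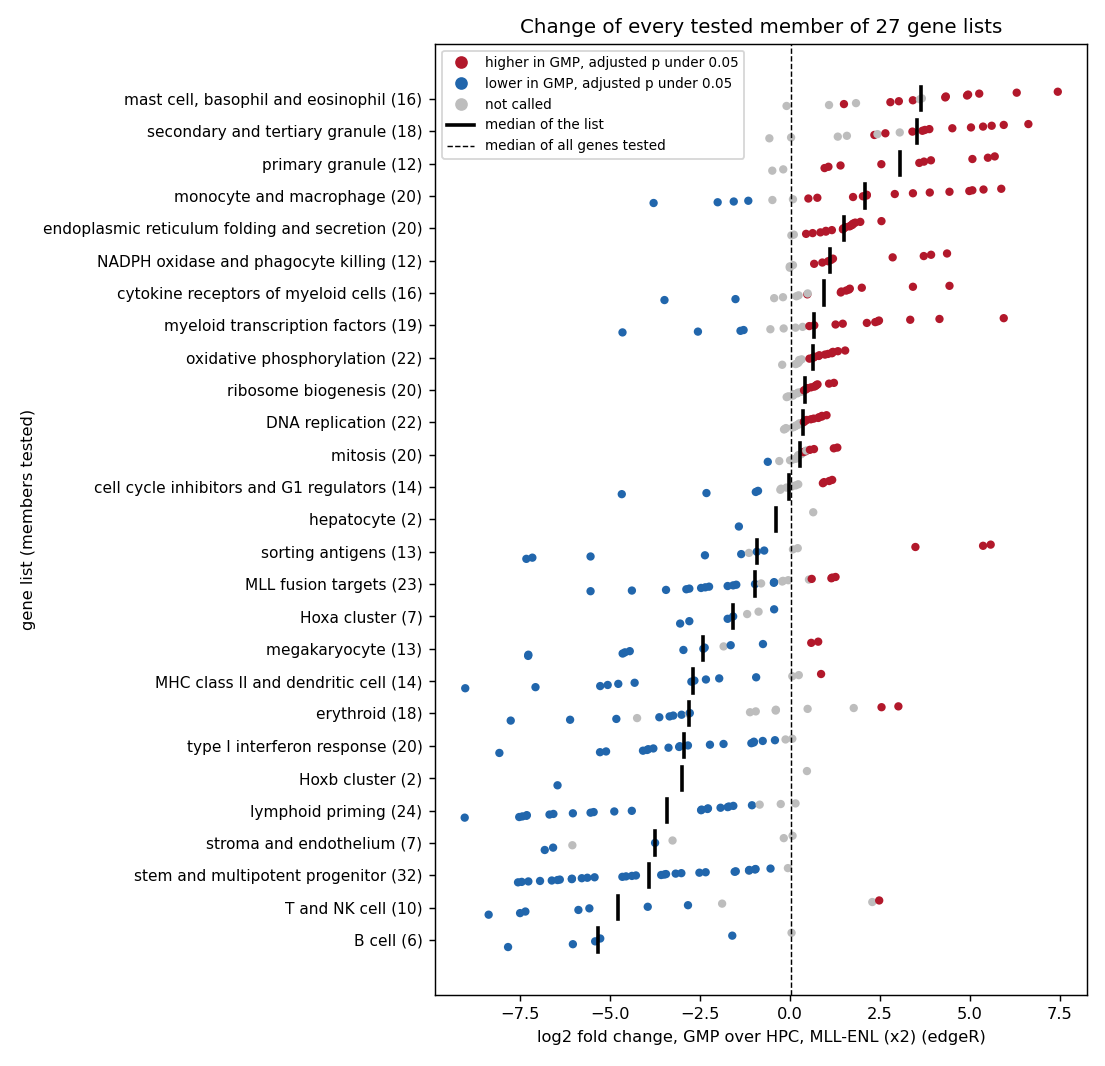
Log2 fold change of GMP over HPC in MLL-ENL (x2) for each tested member of 27 gene lists, sorted by the list median (black bar), with genes called higher in red, lower in blue and not called in grey, and the number tested in brackets. Medians run from 3.64 for mast cell, basophil and eosinophil genes to -5.33 for B cell genes, and the dashed line at 0.02 is the median of all genes.

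Antigens used to sort such progenitors differ by selection and are given as a check on the labels. Ly6a (Sca-1) stood at 1.91, 1.36 and 2.13 CPM in GMP against 195, 238 and 341 CPM in HPC, and the Fc receptor gene Fcgr3 at 613, 521 and 639 CPM against 11.8, 14.6 and 10.0 CPM. Cd34 stood at 636, 623 and 410 CPM against 1281, 1505 and 1389 CPM, and Kit at 453, 416 and 157 CPM against 803, 700 and 350 CPM. In all, 3 of 13 antigens were higher and 7 lower in GMP. Of genes from outside the blood lineage, 4 of 7 stroma and endothelium genes tested fell (median -3.74, or -3.26 with genes at 0 set at their bound). Biglycan (Bgn) stood at 0.213, 0.237 and 0.588 CPM in GMP against 28.2, 35.3 and 34.3 CPM in HPC, Col3a1 was at 0 in all 6 libraries and Cdh5 was at most 0.53 CPM in HPC. The stromal chemokine Cxcl12 was among the 4, at an adjusted p of 0.05, and its call was lost without 5897 (-2.12, adjusted p = 0.3) or 5900 (-2, 0.29). Of 2 hepatocyte genes tested, Afp fell by 1.41, and Alb had 0 counts in all 6 libraries. The part of such cells in these values was not tested.

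The intermediate pGM of the same 3 animals showed at which step each group moved. Between pGM and HPC, 1985 genes were higher (13.9%) and 1910 lower (13.4%), and between GMP and pGM 1509 were higher (10.6%) and 2288 lower (16%). By at least 2-fold, 651 rose (4.57%) and 924 fell (6.48%) in the first step, and 608 rose (4.26%) and 1556 fell (10.9%) in the second. With RLE scaling the first step had 1680 higher and 2158 lower. Without the replicate block it had 1138 and 1153 calls and the second 991 higher. Without animal 5900, 1236 were lower in the first step, and without 5897, 962 were higher and 1507 lower in the second. With library totals alone the second step had 843 higher and 3722 lower. For the 1477 genes that rose by at least 2-fold between GMP and HPC, a median of 52.0% of the log2 change was present in pGM, and for the 2463 that fell 37.2%.

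The share of the change present in pGM varied between lists and between the members of a list. The median share of the log2 change present in pGM was 76.3% for 12 monocyte genes, 75.5% for 8 cytokine receptors and 92.0% for 11 mast cell, basophil and eosinophil genes, with quartiles of 49.4 to 86% for the monocyte genes, 34.3 to 84.6% for the receptors and 16.4 to 114% for the mast cell group. It was 29.6% for 9 primary granule genes, 25.9% for 12 secondary and tertiary granule genes and 23.0% for 15 genes of the endoplasmic reticulum. Among the groups that fell it was 46.2% for 15 interferon genes, 30.4% for 27 stem genes, 25.2% for 21 lymphoid genes and 10.6% for 10 MHC class II and dendritic genes. These shares are descriptions, and differences between lists were not tested. Cebpa rose between pGM and HPC (2.05 ± 0.32, adjusted p = 0.00016) and was not called between GMP and pGM (0.42, 0.35). Irf8 did the same (2.39 ± 0.25, 3e-06, then -0.02, 0.97). Gfi1 was not called in the first step (0.28, 0.46) and rose in the second (2.16 ± 0.26, 4.8e-06), and Cebpe rose by 2.07 and then by 3.87. Elane rose by 1.58 and then 4.11, and Mpo by 2.12 and then 1.80. Gata1 passed through a maximum, at 36.1, 59.3 and 38.2 CPM in pGM, as did Cpa3 at 400, 306 and 313 CPM. Hlf was at 75.9, 90.2 and 60.2 CPM in pGM, and Dntt at 388, 585 and 534 CPM. Hoxa9 fell in the first step (-1.17, 0.00031) and was not called in the second (-0.40, 0.16).

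**Figure D4:**
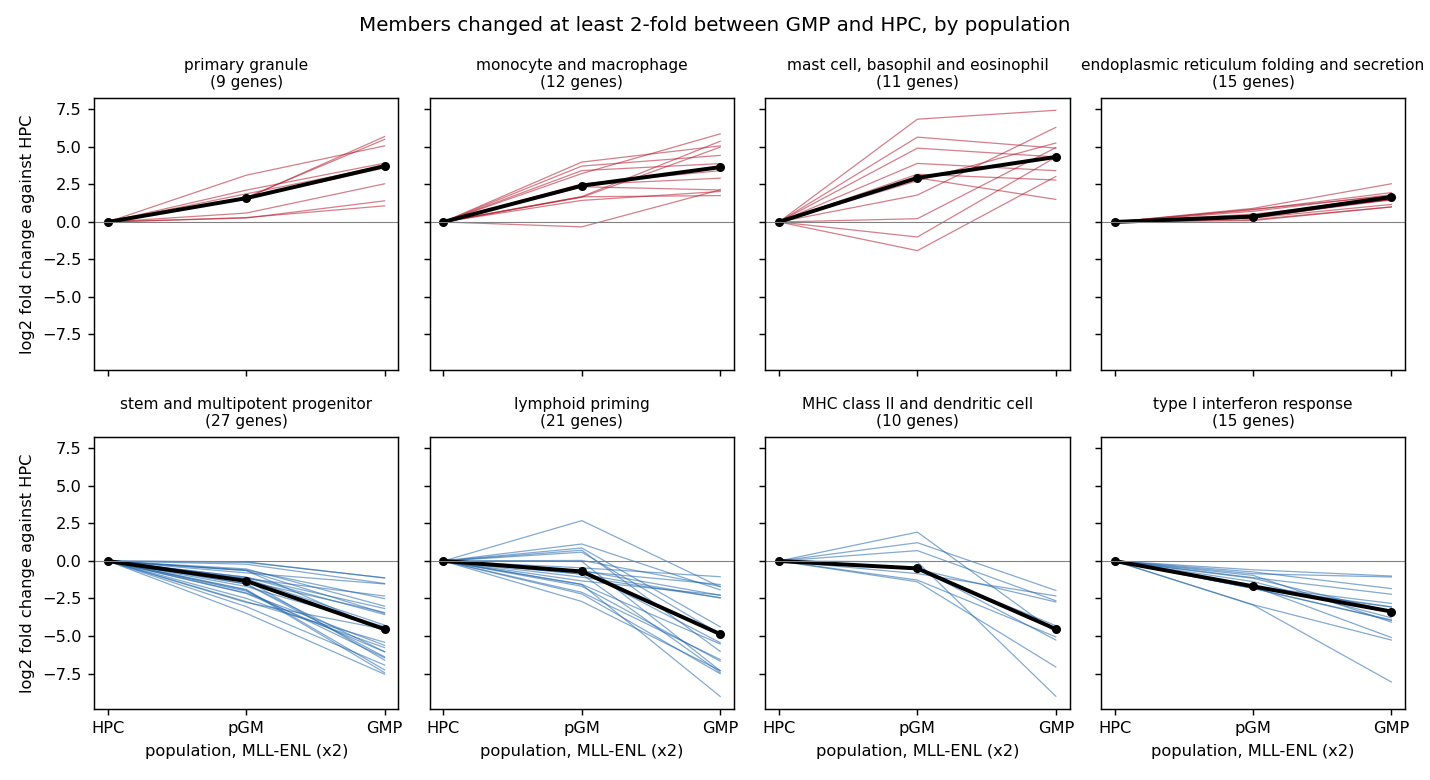
Log2 fold change against HPC in pGM and GMP of MLL-ENL (x2), with HPC at 0, for the members of 8 lists that changed by at least 2-fold between GMP and HPC (thin lines) and their median (black). The medians of the 12 monocyte and 11 mast cell genes rise mainly by pGM, although single members of both lists lie below HPC in pGM, and the medians of the 9 primary granule, 27 stem, 21 lymphoid and 10 MHC class II genes move more between pGM and GMP.

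The same step in the 4 controls was of the same breadth, and few genes differed between the genotypes. In controls 7490 of the 14260 genes (52.5%) were called, 3682 higher (25.8%) and 3808 lower (26.7%), and with library totals alone 2142 were higher. By at least 2-fold, 1280 rose (8.98%) and 2310 fell (16.2%). Without controls 4892 and 4894 2432 were higher. The test of the difference, the change in MLL-ENL (x2) minus the change in controls, called 45 genes (0.316%), 16 positive (0.112%) and 29 negative (0.203%), with 1311 at an unadjusted p under 0.05. This count moved with the setting. DESeq2 called 48 and 85, a fit without the low-count filter 67 and 166, a fit of the 14 GMP and HPC libraries alone 6 and 12, and a fit without the replicate block 3 and 11. Without control 4894 it was 2 and 7, without control 4892 9 and 12, without control 5898 9 positive, and without MLL-ENL (x2) 5897 5 and 14. Without both 4892 and 4894, a choice made after seeing the data, it was 3 and 7. Primary granule genes (0 of 12), myeloid transcription factors (0 of 19), cytokine receptors (0 of 16), MLL fusion targets (0 of 23), lymphoid priming genes (0 of 24) and interferon genes (0 of 20) had no member with a called difference in edgeR. A difference that misses the threshold does not show that both genotypes changed alike.

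The stem list had 4 of 32 members with a called difference, each a larger fall in MLL-ENL (x2). Hlf fell by 5.78 in MLL-ENL (x2) and by 4.26 in controls (difference -1.52, adjusted p = 0.0075), with a mean of 268 CPM in control HPC. Gimap6 was another (-1.29, 0.011). The list median was -3.92 in MLL-ENL (x2) and -2.85 in controls. The megakaryocyte list had 3 of 13 members with a called difference, all negative (Gfi1b, Pf4 and Selp), and the monocyte and macrophage list had 2 of 20, both positive (Cd14 and Adgre1). The erythroid list had 1 of 18 (Hbb-bt, negative), and 1 positive member each stood in the secondary and tertiary granule list (Camp, of 18), the mast cell, basophil and eosinophil list (Prss34, of 16) and the DNA replication list (Tk1, of 22). The lists not named here had none.

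Of the 8 genes with the largest negative differences, 6 were higher in MLL-ENL (x2) HPC than in control HPC without overlap. Tifab, a regulator of innate immune signalling, stood at 797, 826 and 511 CPM in MLL-ENL (x2) GMP and 218, 383 and 334 CPM in MLL-ENL (x2) HPC, against 443, 393, 527 and 650 CPM in control GMP and 27.3, 21, 30.6 and 18.8 CPM in control HPC (difference -3.14 ± 0.28, adjusted p = 9.8e-06). It rose in both genotypes, by 1.22 in MLL-ENL (x2) and by 4.36 in controls, with HPC levels that did not overlap between the genotypes and GMP levels that did. Gfi1b, a transcriptional repressor that acts in the erythroid and megakaryocyte lineages, stood at 4.82, 6.51 and 4.63 CPM in MLL-ENL (x2) GMP and 116, 132 and 97.0 CPM in MLL-ENL (x2) HPC, against 15.5, 11.7, 10.5 and 16.6 CPM in control GMP and 38.4, 36.5, 37.4 and 49.4 CPM in control HPC (-2.86 ± 0.22, 2.5e-06). Here MLL-ENL (x2) was lower in GMP and higher in HPC without overlap. Il9r was at 0 in MLL-ENL (x2) GMP and 26.7, 28.1 and 21.2 CPM in MLL-ENL (x2) HPC, and at most 0.984 CPM in control GMP and 0.254 CPM in control HPC. Its call was lost without control 4892 (adjusted p = 0.17). The protocadherin Pcdh7 stood at 1.13, 0.414 and 3.90 CPM in MLL-ENL (x2) GMP and 17.0, 21.5 and 17.9 CPM in MLL-ENL (x2) HPC, and stayed at or below 1.66 CPM in controls (-4.76 ± 0.71, 0.0056). Slc16a11 (-3.47, 0.013), the complement regulator Cd55 (-3.12, 0.0037), Hbb-bt (-3.13, 0.017) and Parm1 (-4.85, 0.046) were the others. Cd55 stood at 1.13, 0.533 and 0.662 CPM in MLL-ENL (x2) GMP and 5.37, 3.77 and 6.64 CPM in MLL-ENL (x2) HPC, against 6.65, 4.88, 3.45 and 2.38 CPM in control GMP and 3, 3.70, 3.89 and 2.57 CPM in control HPC, so that the HPC libraries overlapped between the genotypes. Slc16a11 was not called without 4894 (-3.49, adjusted p = 0.083) or 5898 (-3.16, 0.056). Hbb-bt was not called without 5897 (-2.60, 0.13), 5900 (-3.44, 0.061), 4892 (-3.04, 0.055) or 4894 (-2.71, 0.11). Parm1 was not called without 5293 (-4.27, 0.16), 5897 (-4.27, 0.13), 4892 (-4.95, 0.14), 4894 (-4.08, 0.12) or 5898 (-5.00, 0.073).

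Of the 8 genes with the largest positive differences, 5 (G0s2, Prss34, Cd14, Tmprss3 and Frmd4b) were lower in MLL-ENL (x2) HPC than in control HPC without overlap. G0s2, an inhibitor of lipolysis, stood at 11.5, 9.77 and 18.3 CPM in MLL-ENL (x2) GMP and 0.0925, 0 and 0 CPM in MLL-ENL (x2) HPC, against 7.14, 9.71, 13.2 and 12.2 CPM in control GMP and 1.73, 1.30, 0.604 and 3.09 CPM in control HPC (5.49 ± 0.84, adjusted p = 0.0057). With 2 counts in MLL-ENL (x2) HPC and 576 in GMP, GMP over HPC was 357 (95% counting interval 98.3 to 2.95e+03). Prss34 stood at 32.6, 23.9 and 12.6 CPM in MLL-ENL (x2) GMP and 0.278, 0.463 and 0.162 CPM in MLL-ENL (x2) HPC, against 107 to 216 CPM in control GMP and 16.7 to 54.7 CPM in control HPC (3.88, 0.013). The Prss34 call was lost without 5293 (3.48, adjusted p = 0.098), 5897 (4.26, 0.061) or 4894 (3.73, 0.072). The summed level of the mast cell, basophil and eosinophil list was 907 to 1304 CPM in MLL-ENL (x2) GMP and 45.4 to 63.8 CPM in MLL-ENL (x2) HPC, against 2119 to 2728 CPM in control GMP and 109 to 353 CPM in control HPC. The part of such cells in the difference was not tested. Camp, a peptide of secondary granules, stood at 29.3, 34.2 and 75.1 CPM in MLL-ENL (x2) GMP and 1.85, 2.71 and 6.96 CPM in MLL-ENL (x2) HPC, against 86.5, 75.7, 2.75 and 5.29 CPM in control GMP and 162, 73.4, 9.46 and 1.16 CPM in control HPC (4.10, 0.027). In controls both populations of 4892 and 4894 were high. Across the secondary and tertiary granule list, the summed level was 185 to 272 CPM in MLL-ENL (x2) HPC and 131 to 2698 CPM in control HPC. The list median of the step was 3.54 in MLL-ENL (x2) and 0.28 in controls, or 2.21 in controls without 4892 and 4894. The Camp call was lost without any of 5293 (adjusted p = 0.079), 5897 (0.13), 5900 (0.069), 4892 (0.17) and 4894 (0.1), with differences of 3.85 to 4.2. Hpgd, which degrades prostaglandins, was highest in GMP of 5293 (103, 5.50 and 2.35 CPM in GMP, 2.73, 0.463 and 0.324 CPM in HPC; 6.49, adjusted p = 0.019). Without 5293 the call held (5.38, adjusted p = 0.028). It was not called without 5897 (6.73, 0.075), 4894 (6.74, 0.083), 5898 (6.19, 0.072) or 5899 (6.16, 0.051).

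The remaining positive differences were Adgre1 (3.28, adjusted p = 0.019), Cd14 (2.16, 0.033), Tmprss3 (2.15, 0.0038) and Frmd4b (1.96, 0.019). Cd14 stood at 18.3, 14.1 and 16.9 CPM in MLL-ENL (x2) GMP and 0.185, 0.927 and 0.540 CPM in MLL-ENL (x2) HPC, against 38.0, 48.8, 59.5 and 63.8 CPM in control GMP and 6.71, 5.97, 10.5 and 6.49 CPM in control HPC. It was lower in MLL-ENL (x2) than in controls in both populations, without overlap. The transmembrane protease gene Tmprss3 fell in both genotypes, by 0.82 in MLL-ENL (x2) and by 2.97 in controls, and its fall in MLL-ENL (x2) was not called without 5293 (-0.62, adjusted p = 0.065). Frmd4b was not called in MLL-ENL (x2) (0.12, adjusted p = 0.75) and fell by 1.84 in controls. Of these, Tmprss3 alone kept its call without any single animal of the set. Adgre1 was not called without 5293 (adjusted p = 0.079), 5897 (0.061), 4894 (0.083), 5898 (0.068) or 5899 (0.066). Cd14 was not called without 5293 (0.13), 5900 (0.12), 4892 (0.15), 4894 (0.1) or 5898 (0.086), and Frmd4b not without 5897 (0.13), 5900 (0.062), 4892 (0.053), 4894 (0.12) or 5899 (0.066).

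Without both 4892 and 4894, the calls of Tifab (-3.38, adjusted p = 0.00089), Gfi1b (-2.75, 0.00089), Prss34 (4.16, 0.014) and Adgre1 (3.94, 0.024) held, and the other 12 were not called. The differences that were not called included Hpgd (7.38, 0.14), G0s2 (5.16, 0.12) and Pcdh7 (-4.62, 0.14), of a size near that with all controls. Il9r was not called either (-14.24, 0.28). With 0 counts in MLL-ENL (x2) GMP, its difference is a fitted value and not a measured size.

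**Figure D5:**
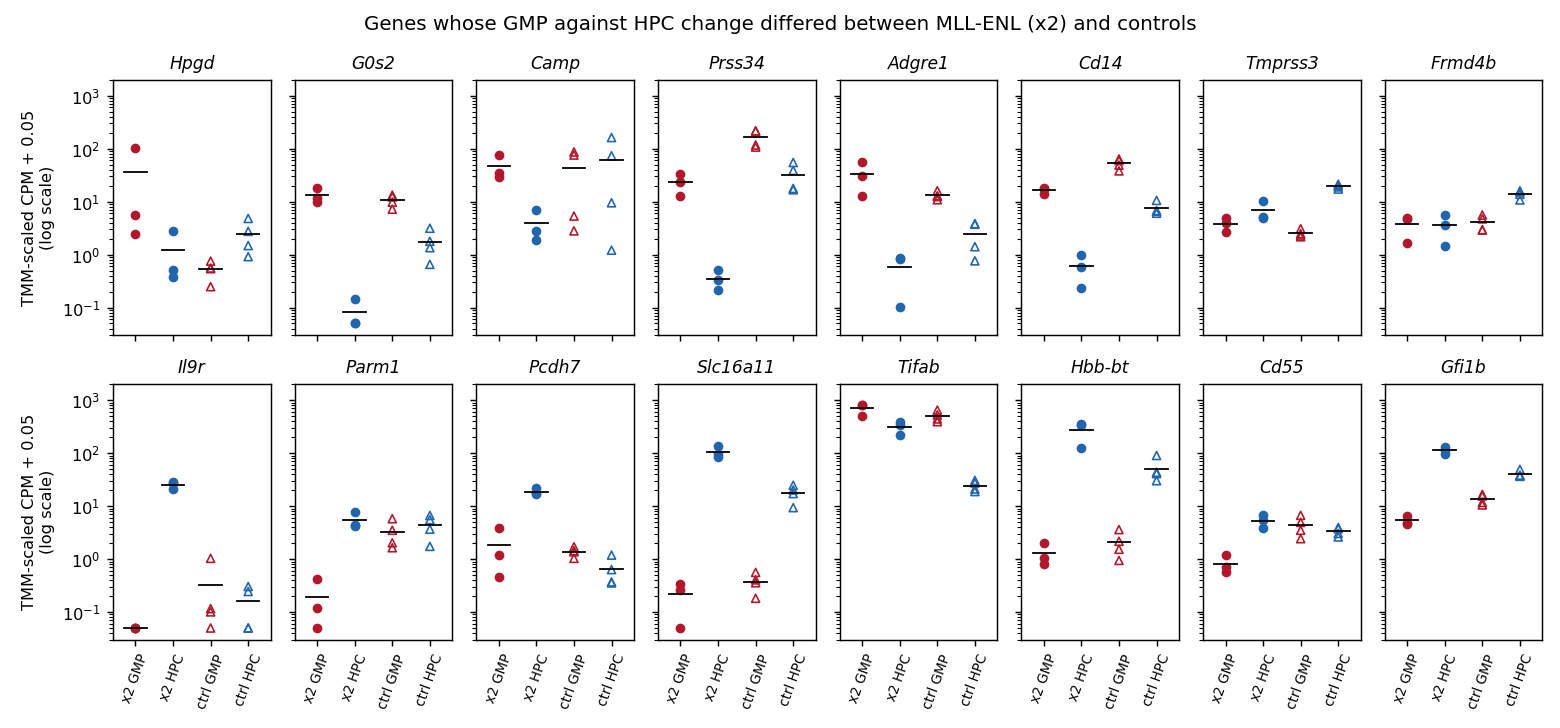
TMM-scaled CPM (log axis, 0.05 added) of the 8 genes with the largest positive (top) and the 8 with the largest negative (bottom) difference between the genotypes, in MLL-ENL (x2) GMP and HPC (filled circles) and control GMP and HPC (open triangles), with bars at the group means. Il9r, Pcdh7, Tifab and Gfi1b are higher in MLL-ENL (x2) HPC than in control HPC, and Cd14 and Prss34 are lower in both MLL-ENL (x2) populations.

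A second set of 10 week mice, labelled MLL-ENL (73, 74, 78 and 81) with controls of its own (76, 80, 87 and 88), was measured at the same step and shares no library with these. In MLL-ENL of that set 5568 of 13298 genes (41.9%) were called. Of 13187 genes tested in both sets, 1781 rose in both, 52.6% of those called higher in MLL-ENL (x2) and 69.5% of those called higher in MLL-ENL, where 19.4% of genes were called higher. Likewise 2309 fell in both, 66.7% of the MLL-ENL (x2) calls and 78.2% of the MLL-ENL calls, where 22.4% were called lower. Animal 73, whose libraries stood apart in earlier results of these data, was left out as the 1 alternative for that set, and no other animal of it was left out. Without animal 73 the shared calls were 1895 higher (55.7% and 65.7% of the calls) and 2413 lower (68.9% and 76%). The difference between genotypes was called in 0 of 13298 genes there by edgeR, with 318 at an unadjusted p under 0.05, and in 0 with 275 without the replicate block. Without 73 it was called in 1 of 13578 (0.00736%), negative in Tifab (-2.31 ± 0.29, adjusted p = 0.0026), which with all animals had a difference of -2.73 ± 0.57 (adjusted p = 1). Of the 45 genes called above, 33 had the same sign there with all animals and 35 without 73. The same-sign share over all genes was not counted, so these counts have no measure beside them. Of the 8 largest differences each way, Prss34 (-1.41 ± 1.27), Adgre1 (-0.57 ± 0.88) and Camp (-0.34 ± 1.3) had the opposite sign there with all animals. So did Parm1 (0.15 ± 0.85), Cd55 (0.08 ± 0.53) and Gfi1b, and the rest of these genes kept the sign. Gfi1b had a difference of 0.20 there with all animals (adjusted p = 1).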

How the data were processed

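RNA of sorted bone marrow cells was extracted with Qiagen RNAeasy micro plus and made into libraries with Clontech SMRTr, as the labels' protocols spell them. The authors deposited raw read counts per gene, and the submitters' processing notes name STAR 3.0.4, Subread and featureCounts 1.4.5. Build, annotation and strandedness: not given in the sources used here. Of 41388 mouse genes, 40254 were given a symbol from GENCODE vM21. The 3 transgene lines were kept out of the tests.

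All 21 libraries of the (x2) set, with 13165806 to 21139291 mouse counts each, were fitted together in edgeR 4.0.16 (quasi-likelihood F test, TMM scaling, filterByExpr, Benjamini-Hochberg adjustment, threshold 0.05), with the identifier as a replicate block (10 residual degrees of freedom, common biological coefficient of variation 0.1815). The identifier was taken to pair libraries, since the deviations of same-identifier libraries from their group means correlated in each of 21 pairs (0.148 to 0.408), against -0.388 to 0.167 in 54 other pairs. Deviations within a group cancel out, which by itself lowers the correlations of the other pairs, and the ranges overlap. The highest of the other pairs joined controls 4892 and 4894. No 2 libraries of a group agreed within sampling noise (chi-square per degree of freedom at least 9.14 over 27 pairs). The controls were grouped. In control GMP the value was 9.14 between 4892 and 4894 and 11.04 between 5898 and 5899, against 32.19 to 37.11 across. In control HPC it was 11.06 between 4892 and 4894, against 41.32 to 82.82 in the other pairs. The cause of this grouping and its part in the difference between genotypes were not tested.

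Named genes were the 12 largest rises and falls among called genes with no overlap between the 3 GMP and the 3 HPC libraries and a mean of at least 20 CPM, the 8 largest differences in each direction with a mean of at least 5 CPM, and up to 6 members per list, while others named for a list were chosen after their values were seen. The members and gene lists were chosen with earlier results of these data known. Folds against 0 counts use a floor of 3 counts over the group, and counts of 1 to 3 have a 95% interval, both covering counting error only. Alternatives were RLE scaling, library totals alone, no low-count filter, DESeq2 1.42.0, no replicate block, fewer libraries in the fit, and leaving out each animal. The fit without controls 4892 and 4894 was chosen after seeing the data. R 4.3.3 ran limma 3.58.1, and Python 3.11.15 ran scipy 1.17.1, numpy 2.4.6, pandas 2.3.3 and, for plots, matplotlib 3.10.9. The edgeR fit was tested on simulated data. Some members of the lists are counted but not reported here by name.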

Additional observations from a re-analysis of the deposited data

Results flagged for a closer look

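For 16 genes the GMP over HPC change differed between MLL-ENL (x2) and controls by edgeR's test of the difference (MLL-ENL (x2) minus control, log2). The difference was 6.49 for Hpgd, 5.49 for G0s2, 4.10 for Camp, 3.88 for Prss34, 3.28 for Adgre1, 2.16 for Cd14, 2.15 for Tmprss3 and 1.96 for Frmd4b. It was -12.9 for Il9r (a fitted value, with 0 counts in MLL-ENL (x2) GMP), -4.85 for Parm1, -4.76 for Pcdh7, -3.47 for Slc16a11, -3.14 for Tifab, -3.13 for Hbb-bt, -3.12 for Cd55 and -2.86 for Gfi1b. Among 4 control libraries, 1 lay far from the others in 3 cases, and chance alone marks about 1 in 20 groups in this way. These were Cd14 at 10.5 CPM in a control HPC library (5.97 to 6.71 in the other 3), Il9r at 0.984 CPM in a control GMP library (0 to 0.0661) and Gfi1b at 49.4 CPM in a control HPC library (36.5 to 38.4).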

How the results depend on the processing

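No called gene among those named changed direction in any setting. The balance between the directions did move. Between pGM and HPC 51% of calls were higher, against 43.8% with RLE scaling (1680 higher, 2158 lower), 44.3% with DESeq2 and 41.7% with library totals alone (1574, 2205). The median log2 change of GMP over HPC was 0.02, against -0.28 with library totals alone. Of the comparisons of single genes across settings, 1987 kept their direction and side of the threshold, 94 were no longer called and 7 became called. Library totals alone gave 2040 genes higher in GMP in MLL-ENL (x2), 2142 in controls, and 843 higher and 3722 lower between GMP and pGM. The difference between genotypes (positive and negative) was 67 and 166 without the low-count filter, 48 and 85 with DESeq2, and 6 and 12 in the 14 GMP and HPC libraries alone. Without the replicate block it was 3 and 11, with 1138 higher and 1153 lower between pGM and HPC and 991 higher between GMP and pGM. Without controls 4892 and 4894 it was 3 and 7, with 2432 genes higher in controls. Without animal 73 the other 10 week set had 1 negative difference. The cause of these shifts was not tested.

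With each animal left out in turn, 2886 to 3153 genes were higher and 3157 to 3394 lower in MLL-ENL (x2), and 2947 to 3126 higher and 3232 to 3441 lower in controls. The difference ranged over 2 to 20 positive and 7 to 36 negative, pGM against HPC over 1380 to 1608 higher and 1236 to 1650 lower, and GMP against pGM over 962 to 1525 higher and 1507 to 2265 lower. In the 6 compared libraries alone, 7 DNA replication and 7 ribosome biogenesis genes rose, and 4 T and NK cell, 5 erythroid and 2 stroma genes fell. Without the replicate block 7 named genes were no longer called in the MLL-ENL (x2) step, namely Camp (3.59, adjusted p = 0.091), Nusap1 (-0.61, 0.054), Aurkb (0.45, 0.11), Mcm2 (0.49, 0.071), Cxcl12 (-2.47, 0.15), Klf4 (1.82, 0.07) and Per3 (0.55, 0.074). In that fit 9 of the 16 named differences between genotypes were not called, namely Prss34 (3.91, 0.13), Adgre1 (3.45, 0.12), Slc16a11 (-3.44, 0.24), Hpgd (7.24, 0.072), Camp (4.12, 0.93), Cd14 (2.13, 0.09), Frmd4b (1.85, 0.52), Parm1 (-4.80, 0.053) and Hbb-bt (-3.14, 0.12).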
